A study of Mus musculus with 16 samples.

Results

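Unoperated C57BL/6J control mice were compared at postnatal day 7 (the pool labelled NC P7) and postnatal day 14 (NC P14). Each age was 1 pool of total RNA from the right neocortex, taken rostral from bregma. The pool of each age was hybridised to 2 Agilent 8 × 60 K mouse arrays, 1 labelled with Cy3 and 1 with Cy5, so the comparison rested on 4 of the 16 arrays of the series. The remaining pools were controls at P35 and 10 weeks (NC P35 and NC 10W) and mice that lost part of the left cortex by suction, as neonates (NBI) or as adults (ABI). All pools share the strain, and the controls carry no transgene and had no surgery. The methods name male animals for the arrays. Both arrays of an age hold 1 pool, so their spread is technical, no spread between animals was measured, and no p-value is given for a difference between ages. The comparison addresses how the neocortex of an unoperated mouse changes over the week in which the neonatally operated mice were followed to their first time point.

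The week between these ages is one of rapid change in the rodent cortex. Most cortical neurons have been born and have migrated by its start, and progenitor cells are leaving the cell cycle. Oligodendrocytes differentiate and wrap axons with myelin, synapses form and change their receptor subunits, fast-spiking interneurons acquire their mature firing, and sensory input increases.

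Levels are the log2 of a spot's processed signal after the 75th percentile of its array was set to 0, so a level of 1 is 2-fold above that percentile. A difference is the level at P14 minus the level at P7 within 1 dye, and each mean difference below is given with the SD of the 2 dyes (n = 2 arrays per pool). A gene was called when it was at least 2-fold higher, or at least 2-fold lower, with both dyes. Of 15221 genes compared, 639 were called higher at P14, which is 4.2%, and 567 were called lower, which is 3.73%. At least 4-fold differences with both dyes were found for 103 higher and 57 lower genes, and at least 8-fold differences for 22 and 7. Differences with Cy3 and Cy5 correlated with r = 0.91 across genes, which do not stand for replicates. The Cy3 difference minus the Cy5 difference had an SD of 0.28 over these genes, and 2 genes went past 2-fold in opposite directions. The split of calls depended on the scaling, since 53.0% of the calls were higher here, 40.4% with median scaling (491 higher and 723 lower) and 31.8% with no scaling (423 higher and 907 lower). These settings moved the median difference of all genes from -0.04 to -0.17 and -0.25, and differences below are relative to the 75th percentile. In bulk RNA, fewer cells of a type and less RNA per cell cannot be told apart.

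**Figure D1:**
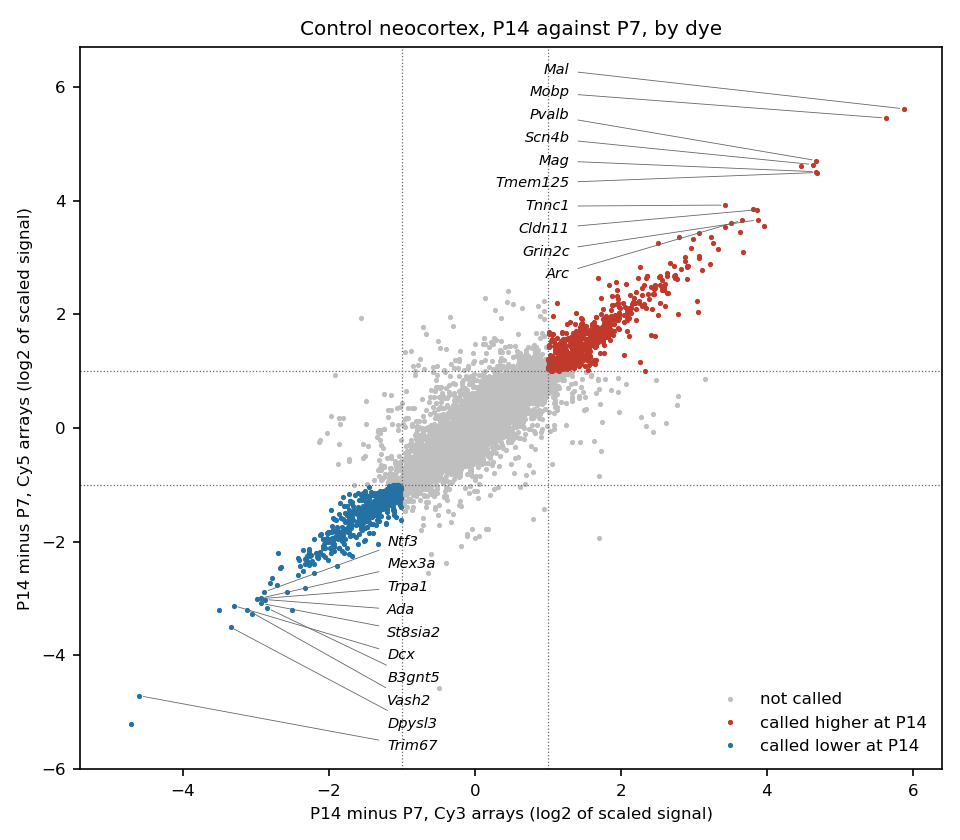
Difference between P14 and P7 of each of 15221 genes with the Cy3 arrays (horizontal axis) and with the Cy5 arrays (vertical axis), in log2 of scaled signal. Dotted lines mark 2-fold, red and blue points are the 639 and 567 called genes, and the 10 measured genes with the largest and the 10 with the smallest mean difference are named and lie near the diagonal.

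Defining genes of the neocortex were present at both ages. All 33 genes of the cortical projection neuron list were well above background on each of the 4 arrays, and Tbr1, a factor of deep-layer and early-born cortical neurons, had levels of 4.56 and 4.65 at P7 and 4.57 and 4.55 at P14 (Cy3 and Cy5). The summed signal of that list was 338 and 333 times the 75th percentile at P7 and 266 and 256 times at P14. Markers of medium spiny neurons, the projection neurons of the striatum that lies under the cortex, moved with age: 11 of 15 compared genes were called higher and none lower, with a median difference of 1.78. Their summed signal was 45.2 and 46.9 at P7 and 214 and 198 at P14. It stayed at 149 to 215 in the controls of P35 and 10 weeks and was 165 and 170 in the NBI 1W pool, whose mice were also 14 days old. Adora2a, the adenosine receptor of indirect-pathway striatal neurons, rose from -0.12 and -0.44 to 2.41 and 2.22, a mean difference of 2.59 ± 0.09 (6.02-fold). Ppp1r1b, which encodes DARPP-32, rose by 2.37 ± 0.24 and the enkephalin precursor Penk by 3.24 ± 0.14. Both are saturated on 1 P14 array, so these differences are lower limits. Drd1 (1.1 ± 0.05), Drd2 (1.39 ± 0.12), Rasd2 (2.08 ± 0.09), Pde10a (1.89 ± 0.04), Rgs9 (1.71 ± 0.01) and Tac1 (1.78 ± 0.00) were also called. Isl1, well above background on 1 of 2 P7 arrays, was at least 4.27-fold higher. Adcy5 at 0.86 ± 0.08, Syndig1l at 0.90 ± 0.11, Gpr6 at 0.65 ± 0.00 and Pdyn at -0.36 ± 0.97 were not called. Many of these genes are also expressed in cortical neurons at lower levels, and the part of striatal RNA in the other results was not tested.

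Markers of choroid plexus, the tissue that secretes cerebrospinal fluid, were low at both ages. The summed signal of 18 marker genes was 3.56 and 3.98 at P7 and 2.25 and 2.34 at P14, against 38.2 and 38.3 in the NBI 1W pool of the same age. Ttr, its transthyretin gene, fell from 0.27 and 0.42 to -1.70 and -1.79 (-2.08 ± 0.17). Sostdc1 (-1.47 ± 0.23), Ecrg4 (-1.14 ± 0.07) and the collagen gene Col8a1 (-1.5 ± 0.30) also fell, and the chloride channel gene Clic6 rose by 1.35 ± 0.11. Kcne2, Otx2, Cldn2 and Wfdc2 were not well above background on both arrays of either pool. The 9 other members were not called and ranged from -0.66 ± 0.01 for the water channel gene Aqp1 to 0.61 ± 0.04 for F5. They also comprised Steap1 (-0.04 ± 0.04), Kcnj13 (-0.02 ± 0.12), Kl (-0.01 ± 0.14), Folr1 (0.11 ± 0.13), Slc4a5 (0.34 ± 0.49), Prlr (0.37 ± 0.02) and Trpv4 (0.46 ± 0.10).

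None of 9 compared blood genes was called. The haemoglobin genes were Hba-a1 (-0.39 ± 0.05), Hbb-bs (-0.46 ± 0.04), Hbb-bt (-0.60 ± 0.11) and Hbb-b2 (-0.61 ± 0.14). These Hbb genes are near-identical copies of each other whose probes may share signal. Alas2 was at -0.58 ± 0.04, Slc4a1 at -0.23 ± 0.00, S100a9 at -0.30 ± 0.10, Camp at -0.00 ± 0.04 and S100a8 at 0.81 ± 0.87. Hba-a2 was saturated in both pools, and Hbb-y, Epb42 and Ngp were not well above background in either. The Y-linked genes Ddx3y (0.18 ± 0.01), Uty (-0.03 ± 0.03) and Eif2s3y (-0.20 ± 0.02) differed little, and Kdm5d and Xist were not well above background on any array of these pools. Xist, which is transcribed from the inactive X chromosome of females, was well above background on both P35 arrays (-3.68 and -3.17) and on 1 of 2 arrays at 10 weeks. Of 19 compared meningeal genes 2 were called higher, Aldh1a1 (1.76 ± 0.09) and Mgp (1.20 ± 0.14), with a list median of -0.38. The ependymal list had 1 of 10 higher (Spag6, 1.52 ± 0.16) and 1 lower (Dnah5, -1.68 ± 0.03). Of 7 compared olfactory bulb genes 3 were lower, with a list median of -1.19 (Cdhr1, -1.59 ± 0.00, with Sp8 and Dlx2, which also mark interneurons), while the summed signal of the list was 18.5 and 18.9 at P7 and 19.1 and 18.4 at P14. The olfactory bulb median is the value of Eomes, which was not well above background at P14 and was not called (-2.14 with Cy3 and -0.25 with Cy5). In the hippocampal and thalamic list 1 of 9 was higher, Fibcd1, at least 3.20-fold as it was not well above background at P7.

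**Figure D2:**
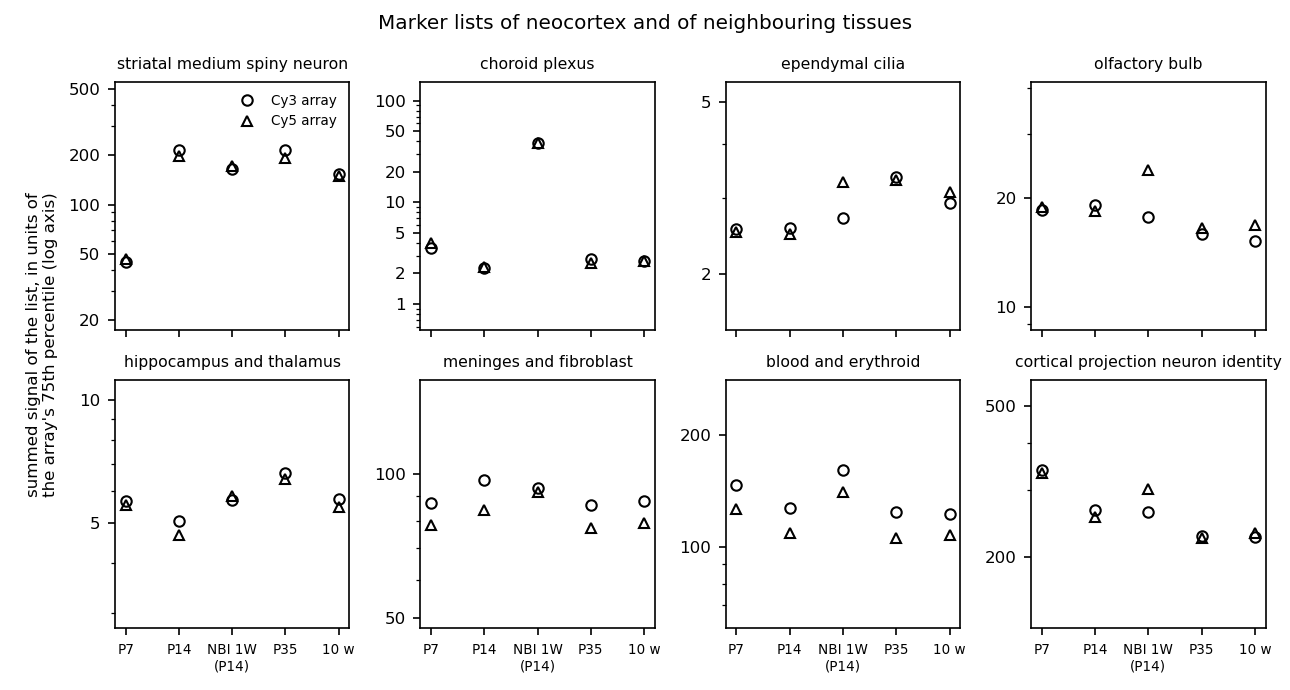
Summed signal of 8 marker lists on the Cy3 (circles) and Cy5 (triangles) array of the P7, P14, P35 and 10 week control pools and of the NBI 1W pool, in units of the 75th percentile of the array, on log axes. The striatal list rises from 45.2 and 46.9 at P7 to 214 and 198 at P14, and the choroid plexus list stands at 38.2 and 38.3 in NBI 1W against 2.25 and 2.34 at P14.

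Many genes of the cell cycle fell. Of 51 compared genes of the list, 28 were called lower and none higher, with a median difference of -1.24 against -0.04 for all genes. Top2a, the topoisomerase of dividing cells, had levels of -1.46 and -1.40 at P7 and -3.73 and -3.55 at P14, a difference of -2.22 ± 0.08 (4.64-fold lower). Mki67, the gene of the Ki-67 proliferation antigen, fell from 1.1 and 1.17 to -0.69 and -0.64 (-1.80 ± 0.01), and a further Mki67 probe fell by 1.79. The thymidine kinase gene Tk1 fell by 1.92 on the log2 scale, the spindle gene Nusap1 by 1.70 and the cytokinesis gene Ect2 by 1.65. The mitotic cyclins Ccnb1 (-1.56 ± 0.11), Ccnb2 (-1.55 ± 0.14) and Ccna2 (-1.54 ± 0.04) and their kinase Cdk1 (-1.52 ± 0.08) fell to a like extent. Bub1, a spindle checkpoint kinase, was not well above background at P14 and was at least 4.00-fold lower. In the replication licensing complex Mcm6 (-1.51 ± 0.03) and Mcm3 (-1.31 ± 0.09) were called, while Mcm5 (-0.86 ± 0.02), Mcm2 (-0.83 ± 0.02), Mcm7 (-0.82 ± 0.05) and Mcm4 (-0.67 ± 0.01) were not. Cyclin D genes were near 0, with Ccnd1 at 0.09 ± 0.01 and Ccnd2 at -0.07 ± 0.02. Top2a was at -4.80 and -4.72 at P35, where it was well above background on 1 of 2 arrays, and Mki67 was at -1.86 and -1.86. Aurkb, Cenpf, Ttk and Ccne2 were not compared for low signal.

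Promoters of the mitotic genes are shown because many of these genes fell and their regulation is known to use the CHR element and the CCAAT box. Windows from 250 bases before to 50 bases after the start were taken from RefSeq (GRCm38.p6) for the 5 measured genes with the largest fall and a single listed start that hold both motifs, and for Tk1, the one with the largest fall that holds neither. Capitals mark the CHR letters TTTGAA (or TTCAAA on the other strand) and the CCAAT letters (or ATTGG), which overlap in Cdca8.
Top2a (chr11:99024140-99024439, minus strand): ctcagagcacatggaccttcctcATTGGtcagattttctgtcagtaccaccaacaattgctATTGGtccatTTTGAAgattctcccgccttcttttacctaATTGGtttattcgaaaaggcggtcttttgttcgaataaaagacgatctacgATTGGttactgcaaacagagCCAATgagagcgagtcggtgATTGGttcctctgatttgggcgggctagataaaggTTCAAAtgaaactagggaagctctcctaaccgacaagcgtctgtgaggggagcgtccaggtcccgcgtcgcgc
Mki67 (chr7:135716330-135716629, minus strand): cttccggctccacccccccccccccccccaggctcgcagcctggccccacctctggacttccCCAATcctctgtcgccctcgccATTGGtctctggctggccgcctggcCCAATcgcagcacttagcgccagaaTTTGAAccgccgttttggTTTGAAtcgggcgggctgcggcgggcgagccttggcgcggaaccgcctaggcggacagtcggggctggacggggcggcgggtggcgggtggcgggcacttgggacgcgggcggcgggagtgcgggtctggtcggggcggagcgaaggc
Cdca8 (chr4:124936868-124937167, minus strand): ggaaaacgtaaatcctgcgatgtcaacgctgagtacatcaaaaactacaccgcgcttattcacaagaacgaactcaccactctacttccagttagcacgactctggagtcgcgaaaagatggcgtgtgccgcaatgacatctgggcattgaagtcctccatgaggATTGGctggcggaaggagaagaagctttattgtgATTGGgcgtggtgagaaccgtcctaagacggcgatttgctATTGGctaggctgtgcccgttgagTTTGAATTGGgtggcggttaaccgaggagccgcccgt
Ccnb2 (chr9:70421505-70421804, minus strand): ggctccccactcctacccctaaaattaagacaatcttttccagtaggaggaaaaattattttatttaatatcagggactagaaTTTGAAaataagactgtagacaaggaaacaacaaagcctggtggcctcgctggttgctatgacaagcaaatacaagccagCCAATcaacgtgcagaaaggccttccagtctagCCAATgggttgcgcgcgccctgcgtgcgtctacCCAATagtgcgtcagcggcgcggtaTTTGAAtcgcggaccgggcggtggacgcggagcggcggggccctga
Cdk1 (chr10:69352863-69353162, minus strand): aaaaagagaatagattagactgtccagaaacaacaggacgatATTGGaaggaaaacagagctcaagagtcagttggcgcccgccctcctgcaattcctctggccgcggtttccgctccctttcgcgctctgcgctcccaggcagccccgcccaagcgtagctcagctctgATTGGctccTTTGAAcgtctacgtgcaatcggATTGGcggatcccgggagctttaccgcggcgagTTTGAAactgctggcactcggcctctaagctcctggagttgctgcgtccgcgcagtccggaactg
Tk1 (chr11:117825965-117826264, minus strand): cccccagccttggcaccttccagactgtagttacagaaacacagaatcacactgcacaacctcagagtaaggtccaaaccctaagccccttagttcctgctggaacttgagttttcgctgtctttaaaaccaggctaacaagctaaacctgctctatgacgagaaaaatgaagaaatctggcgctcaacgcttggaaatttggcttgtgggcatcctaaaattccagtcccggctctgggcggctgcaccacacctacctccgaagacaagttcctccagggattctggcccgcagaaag
Of 28 windows of 25 cell cycle genes that were called lower, 16 (57.1%) held the CHR letters, 23 (82.1%) the CCAAT letters and 15 (53.6%) both. Among all 32851 windows of the table these shares were 17.9%, 37.4% and 6.95%. In 21 windows of 18 compared but uncalled genes of the same list, they were 33.3%, 57.1% and 23.8%. The 32 windows of 22 myelin genes called higher held CHR letters in 6.25% and CCAAT letters in 53.1%. Such a match is a description of the letters, not evidence of binding.

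Some genes of immature neurons fell. Of 29 compared genes of the list 10 were called lower and none higher, with a median difference of -0.66, and 10 further genes, among them Tubb3, Stmn1, Stmn2, Tuba1a and Gap43, were saturated in both pools and gave no fold. Doublecortin, Dcx, a microtubule protein of migrating neurons, had levels of 4.21 and 4.06 at P7 and 0.91 and 0.94 at P14. It fell by 3.21 on the log2 scale (9.28-fold), both P7 arrays lay far above both P14 arrays, and 2 further probes fell by at least 2.87 and by 2.69. Dpysl3, a collapsin response mediator of growth cones, fell from 0.11 and 0.20 to -3.23 and -3.31 (-3.42 ± 0.11). A brighter Dpysl3 probe, saturated at P7, fell by 1.71, which is a limit. Cd24a, a surface glycoprotein of young neurons, fell by 2.73 ± 0.03 and the neuronal differentiation factor Sox11 by 2.34 ± 0.10. Dpysl5 (-2.16 ± 0.15), Igfbpl1 (-2.15 ± 0.11), Nrep (-1.69 ± 0.04), the adhesion molecule L1cam (-1.32 ± 0.17), Sox4 (-1.3 ± 0.03) and the imprinted gene Nnat (-1.16 ± 0.12) were also called. Dcx went on to -0.34 and -0.30 at P35, and Cd24a from 2.11 and 2.06 at P14 to -0.47 and -0.41.

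The largest fall of a measured gene was that of Trim67, a brain-enriched ubiquitin ligase. Its levels of 3.59 and 3.34 at P7 became -1.01 and -1.37 at P14, a difference of -4.65 ± 0.08 (25.2-fold), and its level at P35 was -2.40 and -2.46. A dimmer probe of Trim67 was not well above background at P14 and fell by at least 2.82. St8sia2, a polysialyltransferase that modifies the neural cell adhesion molecule, fell from -0.04 and -0.10 to -2.97 and -3.18 (8.02-fold). Ntf3, which encodes neurotrophin-3, fell from 0.28 and 0.35 to -2.61 and -2.53 (7.39-fold). Vash2 (-3.16 ± 0.05), the glycosyltransferase gene B3gnt5 (-3.01 ± 0.23), the cation channel gene Trpa1 (-2.99 ± 0.02), the RNA-binding gene Mex3a (-2.96 ± 0.04) and adenosine deaminase, Ada (-2.95 ± 0.10), completed the 10 largest falls. In the NBI 1W pool, also of 14 day old mice, Trim67 was at -1.09 and -1.18, Dcx at 1.08 and 0.93, St8sia2 at -3.28 and -4.01 and Ntf3 at -2.66 and -2.45.

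Progenitor and fate genes moved less than the cell cycle. Of 23 compared radial glia genes 2 were called lower, the radial glial fatty acid binding protein Fabp7 (at least 2.81-fold, saturated at P7) and Igf2bp3, which was not well above background at P14. Sox2 (-0.21 ± 0.03), Nes (-0.02 ± 0.04), Pax6 (-0.46 ± 0.10) and Vim (-0.51 ± 0.00) were not called. In the list of projection neuron identity 27 of 33 members had a negative difference, but only Bhlhe22 (-1.68 ± 0.08) and Neurod6 (-1.3 ± 0.02) were called. Of 50 axon guidance genes, the receptors Nrp2 and Neo1 were called lower (both -1.04), and Robo3 (2.00 ± 0.04), Slit3 (1.26 ± 0.04) and Sema4d (1.16 ± 0.13) higher. Among all genes compared 4.2% were called higher and 3.73% lower, so these counts do not set the list apart. Nrp2 and Neo1 were not called with normexp background correction or quantile normalization. Sema4d was not called with normexp, median scaling or no scaling.

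Myelin genes showed the largest increases. Of 34 compared genes of mature oligodendrocytes 28 were called higher and none lower, with a median difference of 1.98. Mal, a proteolipid of compact myelin (RefSeq NM_010762), had levels of -1.29 and -1.18 at P7 and 4.59 and 4.44 at P14. Its difference of 5.75 ± 0.19, or 53.6-fold, was the largest of all measured genes. Mobp, a basic protein of myelin, rose from -0.62 and -0.55 to 5.01 and 4.90 (46.6-fold), and a further probe gave 5.04. The adhesion molecule of the inner myelin layer, Mag, rose from 0.33 and 0.34 to 5.01 and 4.85 (24.1-fold). Cldn11, which forms the tight junctions of myelin, rose by 3.85 ± 0.02 and the galactolipid synthase Ugt8a by 3.48 ± 0.07. Fa2h, which hydroxylates myelin lipids, rose by 3.39 ± 0.41. Opalin was not well above background at P7 and was at least 23.2-fold higher at P14, and Nkx6-2 and Tmem88b were at least 9.53-fold and 8.94-fold higher. The nucleotide phosphodiesterase gene Cnp rose by 2.58 ± 0.02.

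For the myelin basic protein gene, Mbp, the probes disagreed. The brightest one, used here, gave 0.48 ± 0.02 and was not called, whereas another gave 4.12 ± 0.23, with levels of -1.14 and -1.47 at P7 and 2.81 and 2.81 at P14. Ermn, the ermin gene of late oligodendrocytes, was at -0.14 ± 0.39 with its brightest probe and 1.37 ± 0.14 with another. Gjb1 (1.01 ± 0.07), Car2 (0.87 ± 0.06), Gpr37 (0.74 ± 0.29) and Qdpr (0.05 ± 0.14) were not called, and Myrf and Hapln2 were not compared for low signal. Tmem125, a transmembrane gene outside the list, rose from -3.41 and -3.42 to 1.28 and 1.07 (24.1-fold).

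Precursor genes of the same lineage had a median near 0. Of 18 compared genes 1 was called higher, the sialidase gene Neu4 (1.6 ± 0.13), and 1 lower, Cacng4 (-1.13 ± 0.15), with a median of -0.01. Among all genes compared 4.2% were called higher and 3.73% lower, so these counts do not set the list apart. Neu4 was not called with normexp background correction (1.05). Pdgfra, the growth factor receptor of the precursors, was at -0.47 ± 0.00, Cspg4 (NG2) at -0.14 ± 0.05 and Olig2 at -0.13 ± 0.07. Sox10, active through the whole lineage, was at 0.80 ± 0.09. In the later controls Mal was at 5.55 and 5.39 at P35 and 4.72 and 4.69 at 10 weeks, whereas Mobp (3.22 and 3.25) and Mag (3.97 and 3.89) were lower at 10 weeks than at P14. The summed signal of the myelin list was 92.9 and 97.5 at P7, 379 and 350 at P14 and 370 and 374 in NBI 1W.

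**Figure D3:**
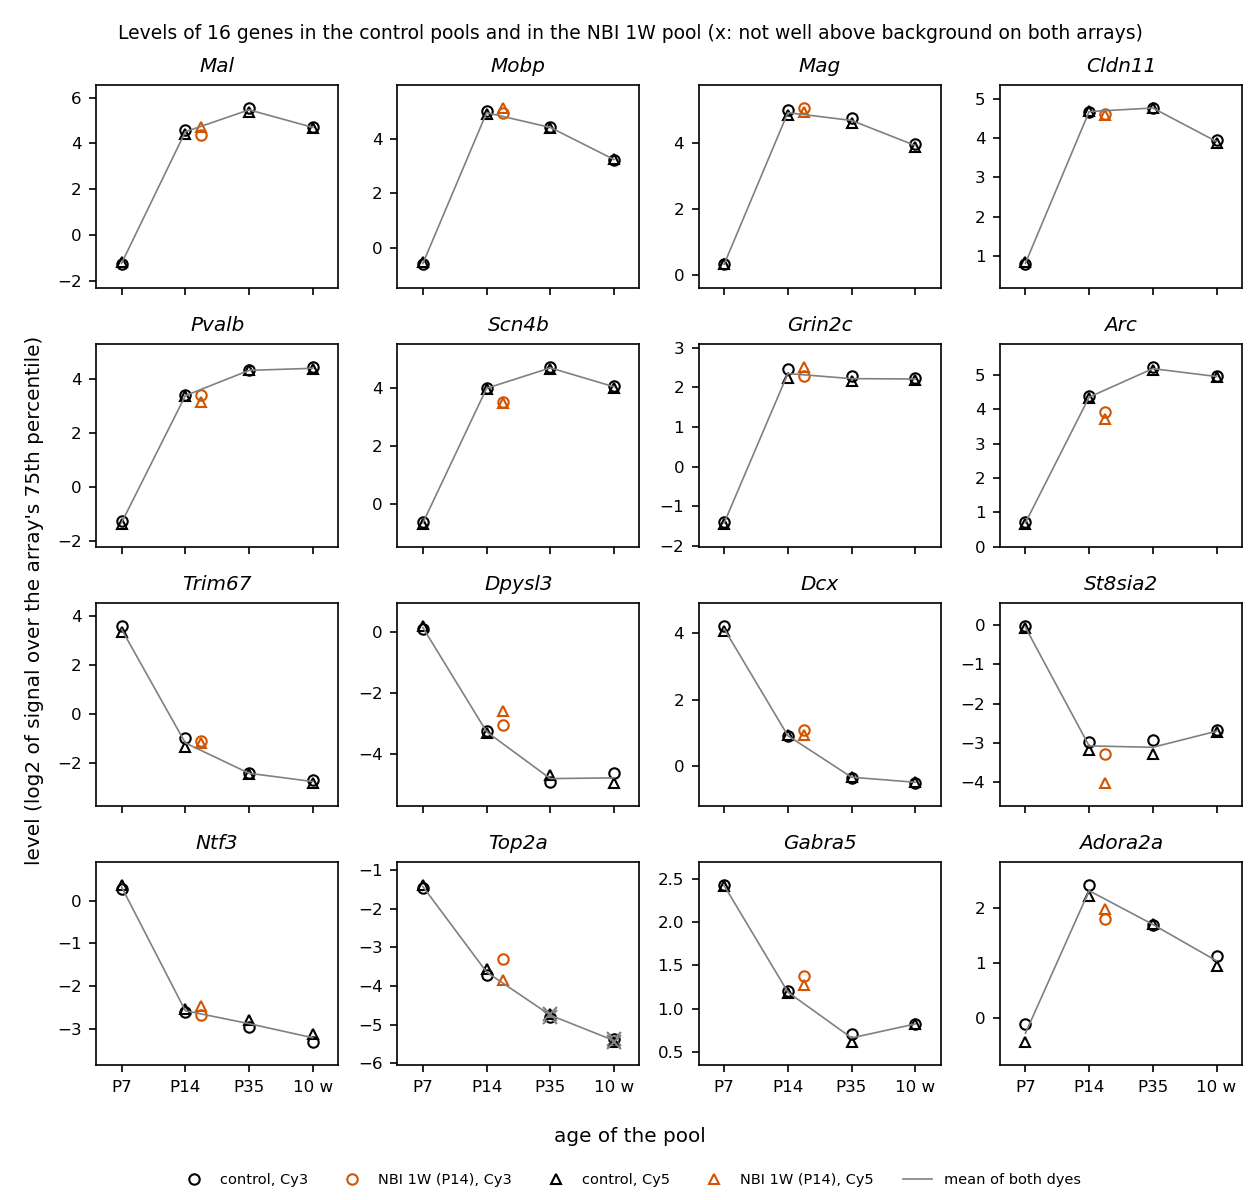
Level (log2 of signal over the 75th percentile of the array) of 16 genes in the control pools of P7, P14, P35 and 10 weeks, with the line through the mean of both dyes, and in the NBI 1W pool in orange. Grey crosses mark Top2a at P35 and 10 weeks, where it was not well above background on both arrays. In each panel the P7 points stand apart from those of P14, but the points of an age come from 1 pool and are no test.

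Sodium channel genes rose in part. Of 8 compared genes 4 were called higher and none lower, with a median of 1.01. Scn4b, a beta subunit that is also abundant in striatal neurons, rose from -0.63 and -0.68 to 4.00 and 3.96, a difference of 4.63 ± 0.00 (24.8-fold). The beta subunit gene Scn2b rose too (1.66 ± 0.06). Among the pore-forming subunits Scn1a, the channel of fast-spiking interneurons, rose from 1.52 and 1.21 to 2.92 and 2.69 (1.44 ± 0.06). Scn3a, abundant in the embryonic brain, was at -0.69 ± 0.02, Scn8a at -0.28 ± 0.05 and Scn2a at -0.16 ± 0.01, and none of these was called. Scn7a was not well above background, and Scn9a and Scn3b were not analysed here.

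Channels of the axon followed in part. Of 54 compared potassium and HCN channel genes 9 were called higher and 2 lower, against 4.2% higher and 3.73% lower of all genes compared. The axonal subunits Kcna1 (1.87 ± 0.09) and Kcna2 (1.72 ± 0.04), the beta subunit Kcnab3 (1.49 ± 0.12) and the fast delayed rectifier Kcnc2 (1.3 ± 0.02) rose, as did Kcnk1 (1.22 ± 0.14). The beta subunit Kcnab2, well above background on 1 of 2 P7 arrays, was at least 2.59-fold higher. Kcnc1 was at 0.38 ± 0.15 with the probe used and was not called, but further probes gave 1.20 and 1.21. The leak channel gene Kcnk10 (-1.91 ± 0.00) and the pacemaker channel gene Hcn3 (-1.50 ± 0.04) fell. Cntnap1, which encodes Caspr of the paranodal junction, rose by 2.88 ± 0.05 and neurofascin, Nfasc, by 1.66 ± 0.27, so that 4 of 15 genes of the node list were called, Kcna1 and Kcna2 included.

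NMDA receptor subunits changed unequally. Grin2a, the subunit that joins the receptor as synapses mature, rose from -1.0 and -1.27 at P7 to 0.66 and 0.67 at P14 (1.80 ± 0.20, 3.48-fold). A further Grin2a probe gave 1.29. Grin2c, best known from cerebellum and glia, rose from -1.40 and -1.44 to 2.47 and 2.22 (3.77 ± 0.15, 13.6-fold). Grin2b, the subunit of young synapses, was at 0.14 ± 0.06, with levels of 2.05 and 2.02 at P7 and 2.23 and 2.12 at P14. The obligatory subunit Grin1 (0.68 ± 0.21), Grin3b (0.63 ± 0.23), Grin2d (-0.56 ± 0.26) and Grin3a (-0.78 ± 0.23) were not called. Of 20 compared AMPA, kainate and metabotropic receptor genes only the AMPA receptor auxiliary subunit Cacng3 was called (1.44 ± 0.08), and Gria2 was at 0.00 ± 0.13. Calls higher made up 4.2% of all genes compared. Gria3 was at 0.89 ± 0.00 and Grm4 at 0.05 ± 0.11 with the probes used. A further probe of each passed 2-fold with both dyes, at 1.15 for Gria3 and 1.12 for Grm4.

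GABA-A receptor genes split by subunit. Gabrd, the delta subunit of extrasynaptic receptors, rose from 2.05 and 2.02 to 3.67 and 3.54 (1.57 ± 0.08, 2.97-fold). Gabra5, the alpha 5 subunit, fell from 2.43 and 2.42 to 1.20 and 1.18 (-1.24 ± 0.01, 2.36-fold), the only compared subunit gene called lower. Gabra4 was at 0.96 ± 0.05, just inside the limit and not called. Gabra2 (0.52 ± 0.01), Gabrg3 (0.48 ± 0.06), Gabrb1 (0.11 ± 0.07) and Gabrb2 (0.05 ± 0.01) were not called either. Gabrg1 was at -0.03 ± 0.04 and Gabra3 at -0.14 ± 0.03, and Gabra6, Gabre and Gabrq were not well above background.

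Genes that handle GABA and chloride moved modestly, and 1 of 16 was called higher and 1 lower. The shares among all genes compared were 4.2% higher and 3.73% lower, so these counts do not set the list apart. The GABA-synthesising enzyme gene Gad2 rose by 1.13 ± 0.09, although it was at 1.01 with median scaling and no longer called, and Gad1 was at 1.1 ± 0.21 with 1 dye under the limit. Both are also expressed by the striatal neurons whose markers rose, and that part was not tested. Slc6a11, the GABA transporter GAT-3 of astrocytes, fell by 1.18 ± 0.00. The potassium-chloride cotransporter gene Slc12a5 (KCC2), which sets the chloride gradient of mature neurons, was at 0.59 ± 0.07 with a dim probe, and its bright probe was saturated on all 4 arrays and gave no fold. The sodium-dependent importer Slc12a2 (NKCC1) was at 0.77 ± 0.03. Abat (0.70 ± 0.16), Car7 (0.67 ± 0.02), Wnk1 (0.28 ± 0.02), Clcn2 (0.25 ± 0.00) and Slc32a1 (0.20 ± 0.21) had small positive differences. Slc12a4 was at 0.08 ± 0.04, Stk39 at -0.07 ± 0.09, Slc12a7 at -0.53 ± 0.11 and Slc6a13 at -0.63 ± 0.12.

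Interneuron genes changed in both directions, with 7 of 29 compared genes called higher and 3 lower. Pvalb, the parvalbumin of fast-spiking basket cells, rose from -1.28 and -1.36 to 3.4 and 3.34, a difference of 4.69 ± 0.02 (25.8-fold), and was at 4.30 and 4.31 at P35. Lamp5 (2.88 ± 0.04), Calb1 (1.68 ± 0.05), Cort (1.15 ± 0.02) and Vip (1.09 ± 0.07) rose, and so did Tac1 and Penk, which the striatal list also holds. Somatostatin, Sst, was at 0.48 ± 0.16 and Npy at 0.93 ± 0.06. The transcription factor genes of young interneurons Sp8 (-1.78 ± 0.00), Dlx2 (-1.3 ± 0.03) and Dlx1 (-1.17 ± 0.06) fell. Of 20 compared genes of the perineuronal net list 3 were called higher and 2 lower. The link protein gene Hapln4 was at least 8.45-fold higher, and the aggrecanase gene Adamts4 rose by 2.53 ± 0.01 and Has1 by 2.14 ± 0.26, while aggrecan itself, Acan, was at -0.08 ± 0.07. Versican, Vcan, fell by 1.5 ± 0.14, but another Vcan probe gave 0.04. The hyaluronan synthase gene Has2, well above background on 1 of 2 P14 arrays, fell by at least 1.58 on the log2 scale.

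**Figure D4:**
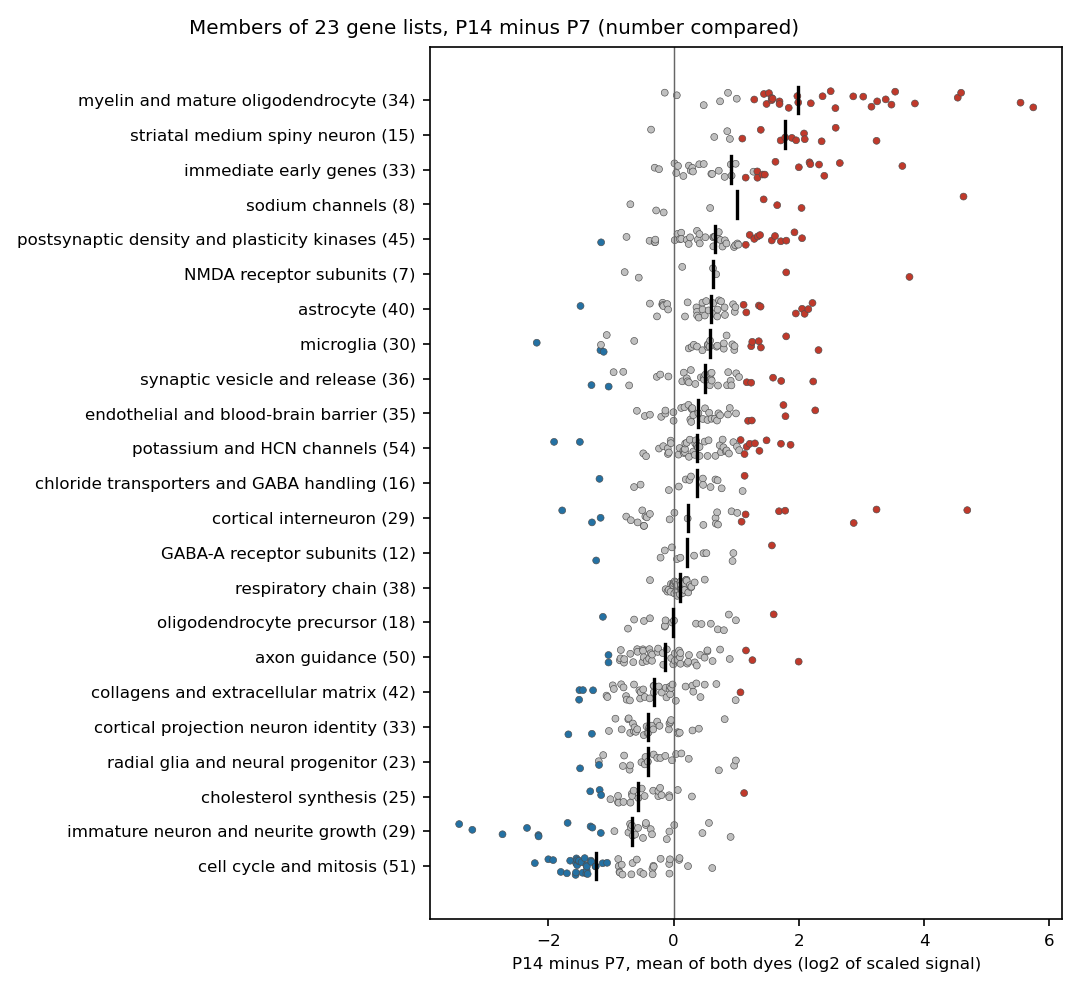
Mean difference between P14 and P7 (log2 of scaled signal, both dyes) of each compared gene in 23 lists, with the number compared in brackets. Red and blue points were called higher and lower, grey points were not called, black bars are list medians, and the myelin list (median 1.98) and the cell cycle list (median -1.24) lie at opposite ends.

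In the postsynaptic list 11 of 45 compared genes were called higher and 1 lower, with a median of 0.66. Kalrn, an exchange factor of spines, rose by 2.05 ± 0.05, although 3 of its other 5 probes were near 0, at 0.15, 0.03 and -0.13. Nptx1 (1.93 ± 0.00), Rgs14 (1.80 ± 0.06), Rgs4 (1.71 ± 0.15) and the kinase gene Camk2a (1.62 ± 0.01) rose, and a further Camk2a probe gave 1.59. Rasgrp2 fell by 1.16 ± 0.02. In the presynaptic list 5 of 36 were higher and 2 lower, with a median of 0.50. All genes compared gave 4.2% higher and 3.73% lower. The vesicular glutamate transporter Slc17a7 (VGLUT1) rose by 1.59 ± 0.01 and Vamp1 by 2.23 ± 0.08, Dnm1 by 1.24 and Bsn by 1.17, and Syt2 was at least 3.29-fold higher, whereas Slc17a6 (VGLUT2) was at -0.96 ± 0.01 and Doc2b fell by 1.31 ± 0.11 and Doc2a by 1.04. The Dnm1 value is that of its dimmer probe, since the brighter one was saturated on both arrays of each pool and gave no fold. Syn1, Syp, Syt1 and Vamp2 were among 8 genes saturated in both pools.

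Some immediate early genes, which neuronal activity induces within minutes, were higher at P14. Of 33 compared genes 13 were called higher and none lower, with a median of 0.91. Arc, which acts in synaptic plasticity, rose from 0.72 and 0.67 to 4.38 and 4.32 (3.65 ± 0.00, 12.6-fold). Fos rose from -1.07 and -1.03 to 1.57 and 1.64 (6.3-fold), Egr2 by 2.41 ± 0.07, Nptx2 by 2.32 ± 0.08, Egr1 by 2.18 ± 0.01 and Nr4a1 by 2.17 ± 0.02. Jun (0.31 ± 0.12), Ier2 (0.60 ± 0.02) and Atf3 (0.25 ± 1.16) were not called, and Junb (1.28 ± 0.47) missed the limit with 1 dye. Arc was at 3.91 and 3.71 in NBI 1W and at 5.22 and 5.14 at P35. Bdnf rose by 1.34 ± 0.06.

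Of 40 compared astrocyte genes 9 were called higher and 1 lower. The neurotensin receptor gene Ntsr2 rose from 1.90 and 1.84 to 4.15 and 4.03 (2.22 ± 0.04), the connexin Gjb6 by 2.15 ± 0.08, S100b by 2.09 ± 0.01 and the glutamate transporter Slc1a2 (GLT-1) by 1.95 ± 0.01. The metallothionein gene Mt2, saturated at P14, was at least 4.15-fold higher. Both further Slc1a2 probes were also higher, at 1.98 and 1.99. Slc1a3 (GLAST) was at 0.56 ± 0.11, Aldh1l1 at -0.09 ± 0.02 and Gfap at -0.17 ± 0.12, none of them called. Thbs1, a synapse-promoting thrombospondin, fell by 1.49 ± 0.11.

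Microglial genes were called in both directions. Selplg (2.32 ± 0.04), Tmem119 (1.80 ± 0.02), P2ry12 (1.39 ± 0.06), Ctss (1.36 ± 0.17), P2ry13 (1.26 ± 0.01) and the complement gene C1qa (1.24 ± 0.01) were the 6 of 30 called higher, and most of them mark homeostatic microglia. Spp1, well above background on 1 of 2 P14 arrays, was at least 4.55-fold lower, and the lipase gene Lpl fell by 1.12 ± 0.01 and the macrophage receptor gene Mrc1 by 1.17 ± 0.09. Spp1 and Lpl are known from the phagocytic microglia of young white matter. The general markers Aif1 (0.37 ± 0.11) and Tyrobp (0.46 ± 0.08) were not called.

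Of 35 endothelial genes 5 were called higher and none lower. Slc2a1, the glucose transporter of the blood-brain barrier, rose from 2.28 and 2.37 to 3.51 and 3.64 (2.38-fold). Ly6a (2.26 ± 0.24), Ly6c1 (1.79 ± 0.10), the organic anion transporter Slco1a4 (1.75 ± 0.02) and Apln (1.19 ± 0.04) rose, while Cldn5 (-0.13 ± 0.11), Cdh5 (-0.00 ± 0.07) and Mfsd2a (0.00 ± 0.09) stayed near 0. Of 14 mural cell genes Cnn1 (1.46 ± 0.20) and Acta2 (1.20 ± 0.01) were called higher. In the matrix list 4 of 42 were lower, led by Col14a1 (-1.51 ± 0.11), Col8a1, Col5a2 (-1.45 ± 0.33) and Mfap2 (-1.29 ± 0.07), and Col6a1 was higher (1.07 ± 0.00). All genes compared gave 4.2% higher and 3.73% lower. With the probe that is brightest over all arrays, Col14a1 was at -0.21.

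Metabolic genes gave few calls, and among all genes compared 4.2% were called higher and 3.73% lower. None of 38 compared respiratory chain genes was called, with differences from -0.38 to 0.50. Cholesterol synthesis genes had a median of -0.56, with 22 of 25 below 0 and Cyp51 (-1.33 ± 0.05), farnesyl diphosphate synthase, Fdps (-1.18 ± 0.09), and Mvk (-1.16 ± 0.04) called lower. Cyp46a1, which clears cholesterol from neurons, rose by 1.13 ± 0.14. Acat1, an enzyme of ketone use, fell by 1.21 ± 0.01, the 1 call among 16 genes of ketone and fatty acid use. Among 15 glycolytic genes only Slc2a1 was called, and Gapdh was at 0.47 ± 0.02.

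Hormone, growth factor and clock genes gave a few calls, with 4 of 34 growth factor genes higher and 2 lower. The shares among all genes compared were 4.2% higher and 3.73% lower. Dio2, which activates thyroid hormone, rose by 1.29 ± 0.03 and the thyroid-responsive corepressor gene Hr by 1.22 ± 0.04, the only calls among 15 genes of that pathway. Igfbp6 rose from -0.55 and -0.82 to 2.32 and 2.11 (2.90 ± 0.04), Gfra1 by 1.47 ± 0.17 and Gdnf by 1.42 ± 0.08, and Fgf10 fell by 1.33 ± 0.03 beside Ntf3. Gdnf was not called with normexp background correction (0.81). In the circadian list the output factor genes Hlf (1.75 ± 0.15) and Dbp (1.09 ± 0.07) and the clock repressor genes Per2 (1.26 ± 0.01) and Ciart (1.23 ± 0.08) were the 4 of 18 called higher. Dbp was no longer called with median scaling (0.96) or no scaling (0.88), and Ciart lost its call with these and with normexp background correction. Of 30 imprinted genes Impact rose (1.39 ± 0.04) and Magel2 (-1.87 ± 0.10), Nnat and Zim1 fell, Zim1 at least 2.73-fold. Uhrf1, which recruits the maintenance DNA methyltransferase, was the 1 gene of 27 called in the chromatin list (-1.13 ± 0.03), and the splicing factor Mbnl2 the 1 of 25 in the RNA-binding list (1.29 ± 0.07). In the interferon list Ifit3 was the 1 of 20 called (2.02 ± 0.13), and none of 9 compared housekeeping genes was called.

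Among the 10 largest rises was also troponin C of slow muscle, Tnnc1, which went from -4.04 and -4.53 to -0.61 and -0.60 (3.68 ± 0.35) and was at -0.25 and -0.18 at P35. Called genes with more than 1 compared probe numbered 260, of which 136 had another probe called in the same direction and 2 had one called in the other.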

How the data were processed

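Per the file headers and the submitters' processing notes, the authors quantified the arrays with Agilent Feature Extraction 11.0.1.1. The deposited scanner tables hold linear spot intensities, and the processed signal is background-subtracted and adjusted for surface trends. The series' value table, as deposited by the authors, holds the same intensity, rounded (largest difference above 100, 0.497%). Array headers name the mm9 build.

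From the channel of the labelled dye, control spots (3671 per array) and outlier spots (140 to 177) were left out, values under 1 were set to 1, and log2 values were taken minus the 75th percentile (1069 to 1597) of the array. Between 60.2% and 64.4% of spots were well above background, 1.18% to 2.05% were saturated, and the channel without label was above background at 0.958% to 1.43%. The number of arrays limits the precision. Probes were named by RefSeq accession through a GRCm38.p6 gene table used for names only (26576 of 55681 probes, 20141 genes). Probes without such an accession carry no name here, since the tables used hold no symbol. A gene was represented by its brightest unsaturated probe over the 4 arrays and entered if well above background on both arrays of a pool. Where an array was not, the higher of its value and the lowest signal well above background stood in, and the fold is written as at least. Genes saturated in both pools (240) were left out, a choice made after seeing the data.

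No test was made, as each age is 1 pool. The names given are the 10 largest and 10 smallest differences, members of 7 short lists, and up to 5 called members each way of the other lists. Other genes were named after their values were seen. Some members of the lists are counted but not reported here by name. Members and the 44 lists were chosen with earlier results of these data known. Python 3.11.15 with pandas 2.3.3 and numpy 2.4.6, and limma 3.58.1 in R 4.3.3 (normexp, offset 50), were used. The code that makes the calls was tried on simulated data with 4-fold changes in bright genes and no saturated spots. That setting does not cover dim or saturated genes, differences near 2-fold or the spread between animals.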

Additional observations from a re-analysis of the deposited data

How the results depend on the processing

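No gene called higher became called lower, or the reverse, in any of the 14 settings that kept genes and the 2-fold limit. The counts of 639 higher and 567 lower moved by over 1.5 times under these settings: no scaling between arrays gave 423 and 907, a limit of 1.5-fold in either direction 1681 and 1634, a limit of 1.5-fold higher and 0.75-fold lower 1681 and 2634, a limit of 3-fold 225 and 146, and probes in place of genes 1095 and 920. With 1 dye alone, which drops the demand that both agree, the counts were 871 to 954 higher and 727 to 773 lower. The arrays of an age share their RNA, and without the replicate block (the mean of both arrays in place of each dye) 770 and 686 genes were called. Normexp gave 466 and 397, quantile normalization 658 and 607, and the value table of the series gave counts of 680 and 571. Without the striatal list, added after seeing the data, 628 and 567 remained, and keeping saturated genes changed neither count. Of 142 called genes that the naming rules cover, 116 were called under every alternative that compared them, and Vcan reversed to 0.037 with the probe brightest over all 16 arrays. Calls beyond those flagged above were lost too. Normexp lost those of Ecrg4, Mrc1, Cnn1, Col6a1, Col14a1, Col5a2, Cyp46a1, Uhrf1 and Spag6. Median scaling lost those of Cort, Kcnk1, Apln, Col6a1, Mgp and Cyp46a1. With no scaling these were lost as well, and also Gad2, Bsn, Dnm1 and Acta2. Quantile normalization lost that of Doc2a. Medians of 13 lists changed sign under some alternative. For 12 of them the median lay between -0.13 and 0.23, and the other, olfactory bulb, went from -1.19 to 0.18 with no filter on dim probes. The olfactory bulb median was the value of Eomes alone, and without the filter 9 genes were compared. The cause of the other sign changes was not tested. Each age is 1 pool, so a difference between animals cannot be told apart from one between ages, and genes near the array background or its ceiling give limits only.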
